A study of Homo sapiens with 3 samples.

Results

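The genes described here are 8 keratins, KRT7, KRT8, KRT80, KRT81, KRT18, KRT19, KRT10 and KRT17, and vimentin (VIM). They were chosen by symbol, and each of the 9 was matched to a single entry among the 36601 genes of the count tables. The cells were OVCAR3, a long-established line derived from a high-grade serous carcinoma of the ovary (HGSOC). Single cells were captured 48 hours after addition of DMSO alone, of RAC1i (50 μM NSC23766, an inhibitor of the small GTPase RAC1) or of Combo (50 μM RAC1i with 5 μM EZH2i, which is GSK126, an inhibitor of the histone methyltransferase EZH2). Both inhibitors were dissolved in DMSO, so every culture received that solvent. EZH2i alone was not analysed here.

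Keratins form the intermediate filaments of epithelial cells, and a filament is built from pairs of an acidic type I chain with a basic type II chain. Simple epithelia pair the type II keratin KRT8 with the type I keratin KRT18 and often add KRT7 and KRT19. Serous carcinomas of the ovary are typically positive for KRT7 and negative for KRT20, a keratin of intestinal epithelium. Vimentin is the type III filament protein of mesenchymal cells, and it is widely read as a marker of epithelial to mesenchymal transition (EMT) when carcinoma cells make it.

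On GRCh38 with the annotation of GENCODE 44, the type II genes lay together on chromosome 12 and 3 of the type I genes on chromosome 17. KRT7 was at chr12:52232520-52252186 on the plus strand, KRT8 at chr12:52897187-52949954 on the minus strand, KRT80 at chr12:52168996-52192014 on the minus strand and KRT81 at chr12:52285913-52291534 on the minus strand. KRT18, the type I gene that sits among the type II genes, was at chr12:52948871-52952906 on the plus strand, and its first 1084 bases overlapped KRT8 on the other strand. KRT19 was at chr17:41523617-41528308, KRT17 at chr17:41619442-41624842 and KRT10 at chr17:40818117-40822614, all on the minus strand, and VIM was at chr10:17228241-17237593 on the plus strand.

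The 250 bases before the RefSeq start (GRCh38.p14) are shown for the 3 genes that were matched in the promoter table, since they stand for a keratin that was lower, a keratin that rose and the mesenchymal filament gene. KRT7, KRT18, KRT19, KRT17, KRT80 and KRT81 were not matched there. Each sequence reads 5′ to 3′ on the strand of its gene, and capitals mark a match to a motif. The windows are chr12:52926470-52926719 on the minus strand for KRT8, chr17:40822615-40822864 on the minus strand for KRT10 and chr10:17227991-17228240 on the plus strand for VIM. The RefSeq start of KRT8 lies inside the longer gene span of GENCODE, so its window is before the start of the RefSeq transcript and not of the GENCODE gene. Other starts of KRT8 were not searched.
KRT8: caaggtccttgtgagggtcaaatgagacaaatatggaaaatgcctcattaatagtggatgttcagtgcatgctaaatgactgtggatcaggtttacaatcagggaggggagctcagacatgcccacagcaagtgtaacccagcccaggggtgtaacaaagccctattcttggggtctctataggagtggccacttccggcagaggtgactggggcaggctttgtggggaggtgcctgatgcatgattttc
KRT10: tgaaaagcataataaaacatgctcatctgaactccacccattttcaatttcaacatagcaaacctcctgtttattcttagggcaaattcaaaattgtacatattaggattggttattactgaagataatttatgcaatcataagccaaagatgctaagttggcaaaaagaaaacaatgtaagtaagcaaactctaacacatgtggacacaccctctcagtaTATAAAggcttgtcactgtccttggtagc
VIM: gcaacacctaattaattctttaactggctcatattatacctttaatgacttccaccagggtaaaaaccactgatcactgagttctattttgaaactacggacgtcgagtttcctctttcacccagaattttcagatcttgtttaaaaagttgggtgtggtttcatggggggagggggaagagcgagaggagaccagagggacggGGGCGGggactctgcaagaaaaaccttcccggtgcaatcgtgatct
The motifs searched on both strands were the TATA box TATAAA, the GC box GGGCGG, the AP-1 site TGANTCA and the E-box CACCTG. KRT10 held a TATA box 29 bases before its start, which 10.7% of all 35116 promoters of the same length held anywhere. VIM held a GC box 46 bases before its start, a motif found in 42.6% of the promoters. None of the 4 motifs was found in the window of KRT8, and the AP-1 site (6.57% of promoters) and the E-box (17.5%) were in none of the 3 windows. These matches describe the letters of the windows and were not linked to any measurement.

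Each condition was 1 library, so no test between conditions was possible, and every interval below is a 95% interval that covers counting error only. After removal of cells with few genes, high mitochondrial share or low complexity, 7531 cells of DMSO, 10215 of RAC1i and 8239 of Combo remained. They held 199063947, 234969742 and 212792113 unique molecular identifiers (UMIs), and the median cell had 26750, 20989 and 24953. Mitochondrial genes took a median of 5.60% of these with DMSO, 1.66% with RAC1i and 1.58% with Combo. Cell barcodes shared between libraries numbered 15 to 23 for a pair. All 7 serous epithelial markers (PAX8, WT1, MUC16, EPCAM, CDH1, SOX17 and MECOM) were present in DMSO at 32.0 to 355 CPM (UMIs scaled to a common library total). By the rule for calls given below, 6 of the 7 fell in both treated libraries. Of all genes, 36.9% fell in RAC1i over DMSO and 35.4% in Combo over DMSO. KRT20 had 2 UMIs in RAC1i and 0 in both DMSO and Combo. Other intestinal markers were higher in both treated libraries. VIL1 went from 56 UMIs (0.281 CPM) in DMSO to 787 (3.35 CPM) after RAC1i and 673 (3.16 CPM) after Combo. CDX2 went from 0 to 37 and 32 UMIs. All 3 genes stayed under 10 CPM, so they did not enter the calls. Markers of non-epithelial cell types stayed low, with summed levels of 0.754 to 0.907 CPM for 4 blood genes and 5.67 to 5.80 CPM for 5 fibroblast genes. Those of 3 endothelial genes summed to 1.22 to 1.88 CPM. Doublets were not removed.

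The keratins changed in both directions after treatment. The keratins with the highest levels in DMSO were lower in both treated libraries, whereas KRT10 and KRT80 rose. Levels are CPM, from the UMIs of a gene added up over all kept cells. They are compared between genes without division by length, since a 3′ tag is counted once per molecule whatever the length of the transcript. A gene was called when its CPM differed at least 1.5-fold and reached at least 10 CPM in the higher library.

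In RAC1i over DMSO, 8 of the 9 genes reached the minimum. KRT17, KRT10 and KRT80 rose and KRT7 and KRT19 fell, against 22.7% of all 8778 genes that rose and 36.9% that fell (59.6% in either direction). In Combo over DMSO, 7 of the 9 reached the minimum. KRT10 and KRT80 rose and KRT7, KRT19 and KRT81 fell, against 21.3% of 8745 genes that rose and 35.4% that fell (56.7% in either direction). The 5 of 8 and 5 of 7 genes called in either direction were thus near the share of all genes called. The median log2 ratio of the genes described here that reached the minimum was −0.51 in RAC1i over DMSO and −0.44 in Combo over DMSO, beside −0.20 and −0.18 for all genes. Both comparisons use the same DMSO library.

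**Figure D1:**
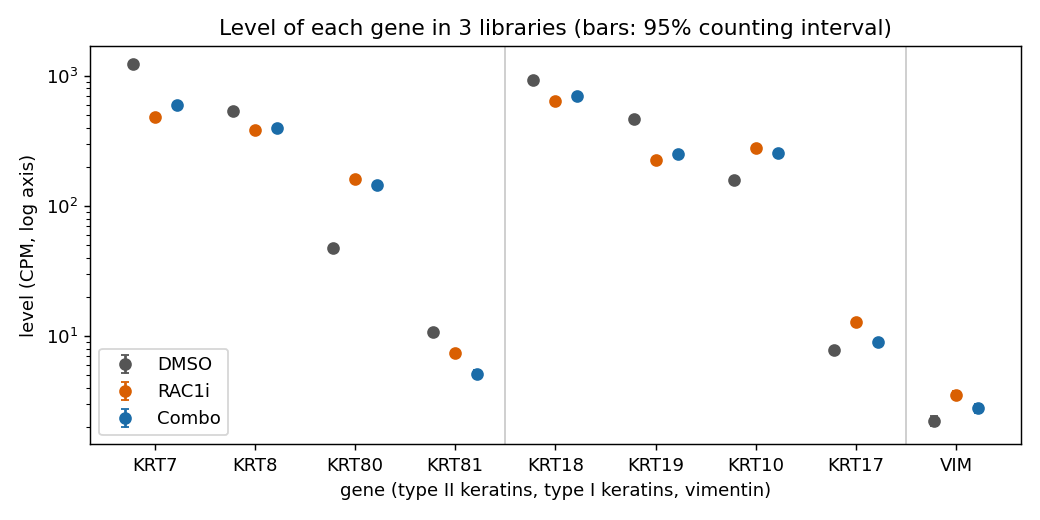
Level of each gene (CPM, log axis) in DMSO, RAC1i and Combo, with type II keratins on the left, type I keratins in the middle and VIM on the right; bars are 95% counting intervals, often smaller than the points. KRT7 dropped from 1226 CPM in DMSO to 486 and 601 CPM, while KRT80 climbed from 47.6 to 161 and 146 CPM, and VIM stayed under 4 CPM in every library.

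Among the type II chains, KRT7, the partner keratin of glandular epithelia, had the highest level of all in DMSO. It measured 1226 CPM with DMSO, 486 with RAC1i and 601 with Combo. The ratio to DMSO was 0.396 (0.393 to 0.399) in RAC1i and 0.490 (0.487 to 0.494) in Combo, so KRT7 was lowest with RAC1i alone. KRT8, the general type II keratin of simple epithelia, changed less. Its level was 537 CPM with DMSO, 382 with RAC1i and 395 with Combo. The log2 ratios to DMSO were −0.49 and −0.44, on the inner side of the 1.5-fold limit.

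How far KRT8 was lower depended on the depth of the cells compared. When each library was split into 3 groups of cells by their UMIs, KRT8 in DMSO ran from 810 CPM in the shallowest cells through 585 CPM to 455 CPM in the deepest, whereas RAC1i ran at 390, 403 and 369 CPM. The log2 ratio of RAC1i to DMSO was therefore −1.05 in the shallowest cells, −0.54 in the middle and −0.30 in the deepest. KRT8 passed 1.5-fold in both treated libraries when CPM was averaged over cells (log2 −0.74 in each) and when every cell was thinned to 5000 UMIs (−0.64 and −0.63). The part of cell depth in this result was not tested.

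KRT80, a type II keratin found in many epithelia and known from differentiating cells, rose the most. It measured 47.6 CPM with DMSO, 161 with RAC1i and 146 with Combo. The ratio to DMSO was 3.38 (3.31 to 3.46) in RAC1i and 3.06 (2.99 to 3.14) in Combo, and 95.4% of all tested genes had a ratio at or below it in RAC1i. Its antisense neighbour LINC00592 was at 0.663, 3.53 and 2.89 CPM, a small fraction of the level of KRT80.

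Among the type I chains, KRT18, the partner of KRT8, had the highest level of the 9 genes in both treated libraries. It measured 924 CPM with DMSO, 644 with RAC1i and 696 with Combo. The log2 ratios to DMSO were −0.52 and −0.41 and stayed inside the 1.5-fold limit, although RAC1i over DMSO reached −0.59 with mitochondrial genes left out of the total and −0.60 as a mean over cells. In the shallowest group of cells KRT18 passed the limit in both comparisons, at −0.67 and −0.66. KRT19, the smallest keratin, which lacks the usual tail domain, fell further. It measured 463 CPM with DMSO, 225 with RAC1i and 250.3 with Combo, with ratios of 0.485 (0.480 to 0.491) and 0.541 (0.535 to 0.547).

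KRT10, the type I keratin of the upper layers of the epidermis, rose while the simple keratins were lower. It measured 159 CPM with DMSO, 281 with RAC1i and 256 with Combo, with ratios of 1.77 (1.74 to 1.79) and 1.61 (1.59 to 1.63). In Combo over DMSO KRT10 stayed inside the 1.5-fold limit as a mean over cells (log2 0.53) and in the shallowest group of cells (0.35). The antisense gene KRT10-AS1, listed under its older symbol TMEM99, overlaps 3514 bases of KRT10 and rose with it, from 36.4 CPM in DMSO to 84.8 and 83.2 CPM. Cell Ranger was run with its default settings, which for 3′ libraries count reads on the sense strand of a gene. KRT7 shares 2887 bases with KRT86 on the same strand, and KRT8, KRT18 and KRT17 have processed or duplicated pseudogenes. How far this bears on their counts was not measured.

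KRT17, a type I keratin of basal and stressed epithelium, was near the lower limit of the comparison. It measured 7.86 CPM with DMSO, 12.9 with RAC1i and 9.03 with Combo. The ratio of RAC1i to DMSO was 1.65 (1.55 to 1.75), and the ratio of Combo to DMSO was 1.15 (1.07 to 1.23) with neither library at 10 CPM. KRT17 was thus higher with RAC1i alone than with Combo, at a log2 ratio of Combo to RAC1i of −0.52, within the 1.5-fold limit. In the shallowest group of cells KRT17 was at 12.1 CPM in each treated library, and the log2 ratio of Combo to DMSO was 0.84, past 1.5-fold.

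KRT81, a type II keratin of the hair cortex, owed its level in DMSO to a handful of cells. It measured 10.8 CPM with DMSO, 7.41 with RAC1i and 5.14 with Combo. In DMSO the 10 cells with the most KRT81 UMIs, of 7531 cells, held 60.0% of its 2146 UMIs, and a single cell held 258. In RAC1i and Combo the corresponding 10 cells held 22.7% and 24.4% of 1741 and 1094 UMIs. Without those 10 cells of each library the log2 ratio of RAC1i to DMSO went from −0.54 to 0.41 and that of Combo to DMSO from −1.07 to −0.15, so the fall of KRT81 in Combo rested on them. In RAC1i over DMSO the log2 ratio of KRT81 was 0.77 in the shallowest group of cells and −0.78 in the deepest. It also passed 1.5-fold downward in thinned cells (−0.63), without the 8% of cells with the most UMIs (−0.71) and without mitochondrial genes (−0.61). The share of cells with a KRT81 UMI was higher after treatment, at 5.13% in DMSO, 7.49% in RAC1i and 6.76% in Combo before thinning. KRT81 has close copies among the hair keratins, so its UMIs are uncertain in part.

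**Figure D2:**
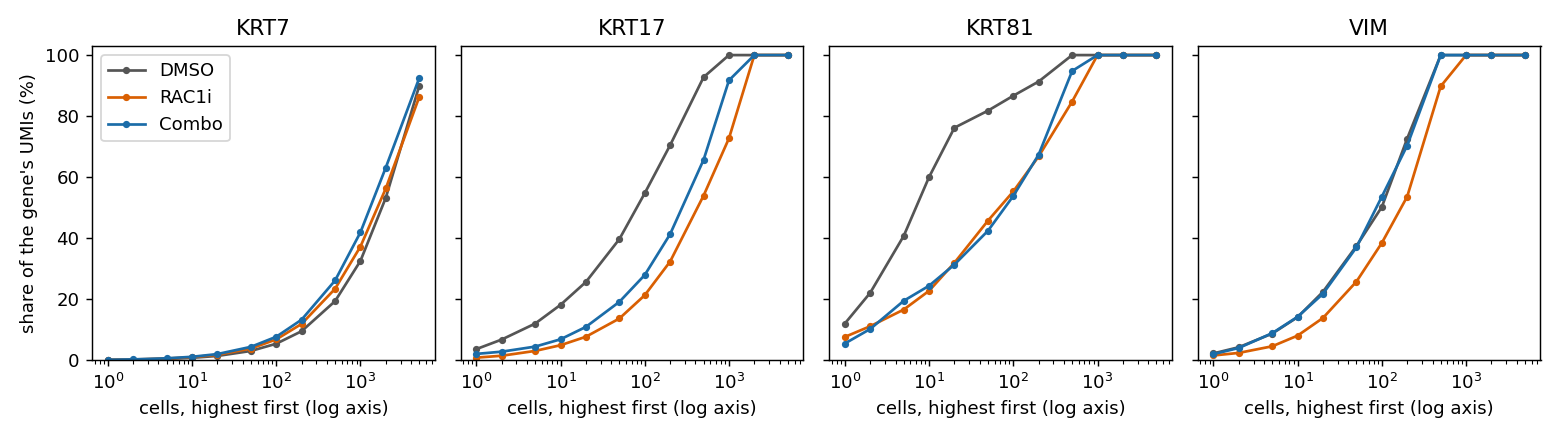
Share of the UMIs of a gene (%) held by the cells with the most of them, counted from the highest cell (log axis), for KRT7, KRT17, KRT81 and VIM in each library. For KRT81 in DMSO the 10 highest cells already held 60.0% of the UMIs, while the curves of KRT7 in the 3 libraries stay close to 1% at 10 cells.

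Cells rich in KRT81 or KRT17 were rare. There were 16 cells with 10 or more KRT81 UMIs in DMSO, 29 in RAC1i and 10 in Combo. Cells with 10 or more KRT17 UMIs numbered 20, 11 and 6. The 10 highest cells held 18.2%, 4.93% and 6.87% of the KRT17 UMIs and 14.1%, 8.07% and 14.2% of the VIM UMIs in DMSO, RAC1i and Combo.

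VIM was the lowest of the 9 genes in every library. It measured 2.24 CPM in DMSO (446 UMIs), 3.53 CPM in RAC1i (830 UMIs) and 2.81 CPM in Combo (597 UMIs), and at these levels it did not enter the calls. The ratio to DMSO was 1.58 (1.40 to 1.77) in RAC1i and 1.25 (1.11 to 1.42) in Combo. After thinning to 5000 UMIs per cell the log2 ratio was 0.30 in RAC1i and −0.41 in Combo, so no order between Combo and DMSO is read from it. Far fewer VIM than KRT18 molecules were counted. The ratio of VIM to KRT18 UMIs was 0.00243 with DMSO, 0.00549 with RAC1i and 0.00403 with Combo.

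**Figure D3:**
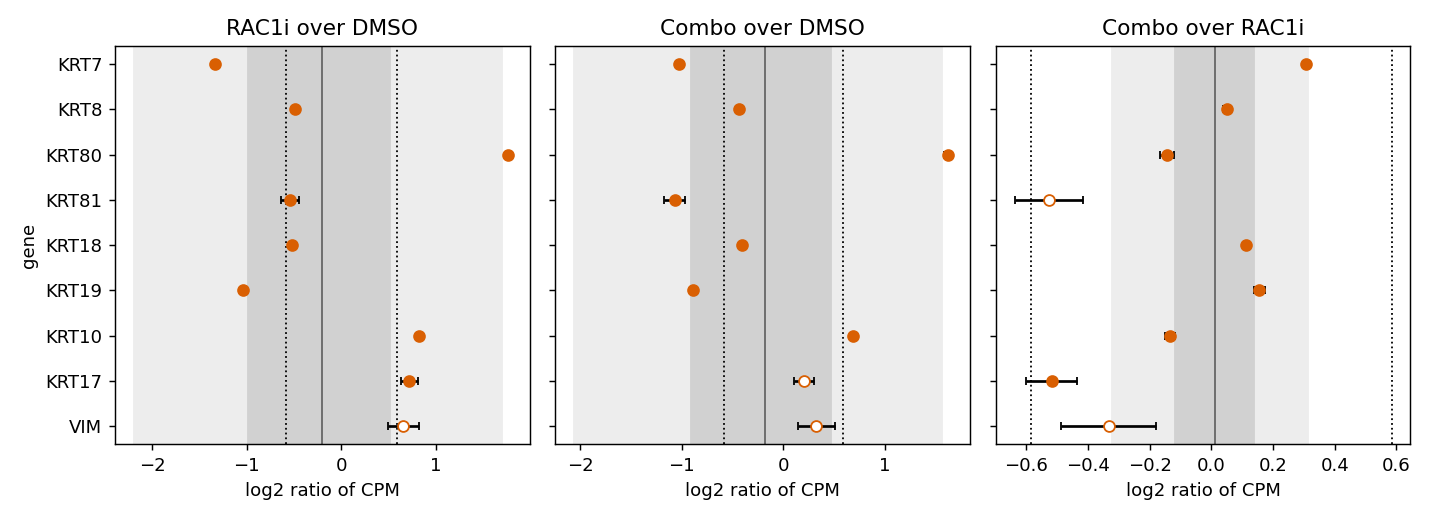
Log2 ratio of CPM for each gene in the 3 comparisons, with 95% counting intervals; filled points reached 10 CPM in the higher library and open points did not. Dark and light grey bands hold the middle 50% and 90% of all tested genes, the grey line is their median and dotted lines mark 1.5-fold; KRT80 lies at 1.76 and 1.62 over DMSO, at the upper edge of the light band, and no filled point passes 1.5-fold in Combo over RAC1i.

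No gene of the list passed 1.5-fold between Combo and RAC1i. In Combo over RAC1i, 7 of the 9 reached the minimum and 0 were called, beside 0.175% of 7443 genes that rose and 0.484% that fell, 0.658% in all (0.267% and 0.414% when scaled by TMM, 0.363% and 0.511% in thinned cells). Among these 7 the largest difference was that of KRT17, which was lower in Combo with a ratio of 0.698 (0.659 to 0.739). Only 0.846% of the tested genes were at or below it. KRT81 was at a like ratio of 0.694 (0.643 to 0.749) with neither library at 10 CPM. The largest difference upward was KRT7, with a ratio of 1.24 (1.23 to 1.25) that was at or above that of 94.7% of the tested genes. KRT18 (1.08), KRT19 (1.11) and KRT8 (1.04) were slightly higher in Combo, and KRT10 (0.911) and KRT80 (0.905) slightly lower. Over all kept cells Combo lay between RAC1i and DMSO for each of these 6 keratins. In the shallowest group of cells Combo was instead below RAC1i for KRT8 (log2 ratio −0.09) and KRT19 (−0.11), and KRT8 was level as a mean over cells (−0.01).

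The mitochondrial share differed between DMSO and the treated libraries, and with mitochondrial genes left out of the total the log2 ratios in RAC1i over DMSO were −1.40 for KRT7, −1.11 for KRT19, 0.76 for KRT10 and 1.69 for KRT80. Size factors from DESeq2 moved the median of all genes from −0.20 to −0.07 in RAC1i over DMSO. Relative to the median of all genes, KRT7 was at −1.14, KRT19 at −0.84, KRT18 at −0.32, KRT8 at −0.29 and KRT10 at 1.02 on the log2 scale. The calls of KRT7, KRT19 and KRT80 held under every scaling and every limit on cells that was tried, in both comparisons with DMSO.

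The order of levels changed with treatment. In DMSO the order from the highest was KRT7, KRT18, KRT8, KRT19, KRT10, KRT80, KRT81, KRT17 and VIM. In RAC1i and in Combo KRT18 stood above KRT7, KRT10 above KRT19 and KRT17 above KRT81, and the rest kept their places. The place of KRT81 above KRT17 in DMSO rested on few cells, since without the 10 highest cells of each gene KRT81 was at 4.31 CPM and KRT17 at 6.43 CPM there. The counting intervals of neighbours did not overlap in any library, and the closest pair was KRT10 (254 to 258 CPM) and KRT19 (248 to 252 CPM) in Combo. That pair turned round in the middle group of cells by UMIs (246 CPM for KRT10 and 264 CPM for KRT19) and was level in thinned cells (243 and 244 CPM), so no order between them is read in Combo. In RAC1i KRT10 was above KRT19 in all 3 groups of cells and in thinned cells.

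The keratin pool was smaller and of a different make-up after treatment. The 8 keratins summed to 3374 CPM with DMSO, 2197 with RAC1i and 2358 with Combo. KRT7 made up 36.3% of their UMIs with DMSO, 22.1% with RAC1i and 25.5% with Combo. KRT10 went from 4.71% to 12.8% and 10.8%, and KRT80 from 1.41% to 7.32% and 6.18%. Among transcripts of these 8 keratins, type II outnumbered type I in DMSO, at 1.17 UMIs of type II for each of type I. In RAC1i (0.891) and Combo (0.948) type II was outnumbered. These are counts of RNA and not of protein chains, and they leave out other keratins such as KRT23.

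Over all kept cells the ratio within the KRT8 and KRT18 pair was similar in the 3 libraries. There were 0.581 KRT8 UMIs for each KRT18 UMI in DMSO (0.577 to 0.586), 0.593 in RAC1i (0.588 to 0.598) and 0.569 in Combo (0.564 to 0.573). The direction of change depended on depth. In the shallowest group of cells the ratio was 0.675 with DMSO, 0.516 with RAC1i and 0.482 with Combo, and in the deepest it was 0.554, 0.610 and 0.587. In thinned cells it was 0.613, 0.574 and 0.543. KRT7 over KRT8 went from 2.28 in DMSO to 1.27 in RAC1i and 1.52 in Combo. KRT19 over KRT18 went from 0.501 to 0.349 and 0.360. Both ratios, and type II over type I, were highest in DMSO in every group of cells by depth and in thinned cells.

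In single cells KRT7, KRT8, KRT18 and KRT19 were each detected less often after treatment. To compare shares at a fixed depth, cells were randomly thinned to 5000 UMIs apiece, which left out 806 shallower cells of DMSO, 1015 of RAC1i and 885 of Combo. The share of thinned cells with a KRT18 UMI was 96.9% for DMSO, 92.0% for RAC1i and 93.1% for Combo. For KRT7 it was 97.7%, 77.8% and 82.8%, for KRT8 90.3%, 78.8% and 78.7%, and for KRT19 79.6%, 58.8% and 61.1%. These 4 shares were all highest in DMSO.

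The shares of KRT10 and KRT80 went the other way. KRT10 was detected in 53.2% of thinned cells of DMSO, 71.3% of RAC1i and 67.2% of Combo, and KRT80 in 19.4%, 50.6% and 45.2%. KRT17 was detected in 2.60%, 5.67% and 4.39%, KRT81 in 1.31%, 2.53% and 2.12%, and VIM in 1.34%, 1.74% and 1.09%. Before thinning, KRT7 was detected in 99.6%, 93.5% and 94.8% of kept cells, KRT80 in 55.2%, 79.1% and 78.9% and VIM in 4.28%, 5.73% and 4.58%. A single line has no cells known to lack these genes, so the share due to free RNA could not be measured, and low shares such as those of VIM and KRT81 are not read as a number of expressing cells.

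**Figure D4:**
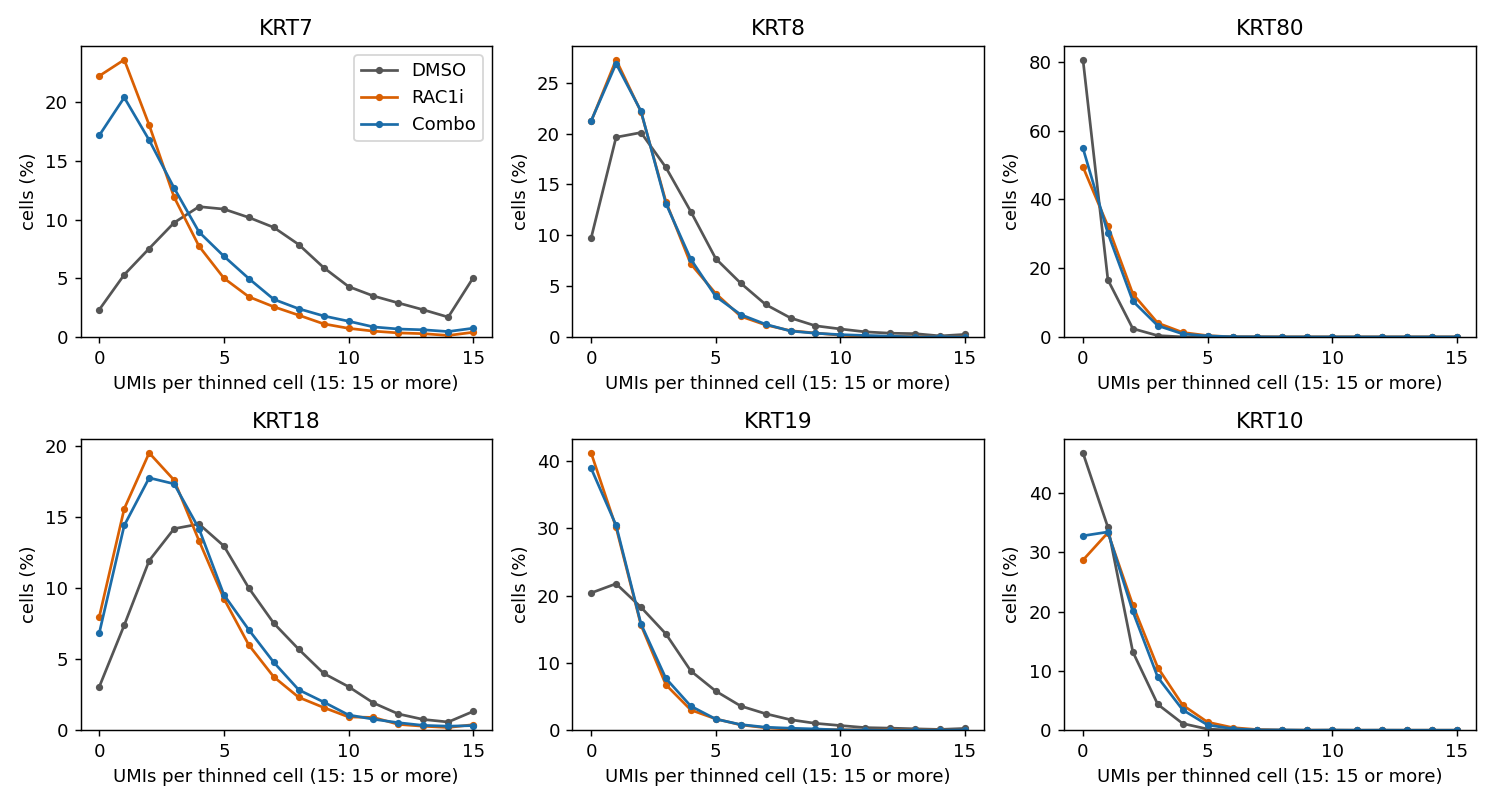
Percentage of cells with each number of UMIs of 6 keratins, in cells thinned to 5000 UMIs; the last point gathers cells with 15 or more. For KRT7 the DMSO curve has its highest point at 4 UMIs and those of RAC1i and Combo at 1, while for KRT80 cells with 0 UMIs went from 80.6% in DMSO to 49.4% and 54.8%.

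Few cells lacked keratins altogether. All 4 simple keratins KRT7, KRT8, KRT18 and KRT19 were detected in 70.4% of thinned cells of DMSO, 37.1% of RAC1i and 41.5% of Combo. Cells with 2 of the 4 or fewer were uncommon in DMSO, where cells with exactly 2 made up 4.46%, beside 18.5% in RAC1i and 16.7% in Combo. No UMI of the 8 keratins was found in 1 of 6725 cells of DMSO, 4 of 9200 of RAC1i and 2 of 7354 of Combo.

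The simple keratins varied together from cell to cell, and in DMSO KRT8 with KRT18 did so most. Co-expression was measured as Pearson's r of log(1 + UMI) over the thinned cells of a library, which are not replicates. These cells differed in depth before thinning. In DMSO all of KRT7, KRT8, KRT18 and KRT19 were lower in the deepest group of cells than in the shallowest. For KRT7 the levels were 1117 beside 1545 CPM and for KRT8 455 beside 810 CPM. The part of the original depth in r was not tested. For KRT8 and KRT18 r was 0.35 with DMSO, 0.27 with RAC1i and 0.28 with Combo. For KRT7 it was 0.24, 0.26 and 0.28 with KRT18, 0.26, 0.23 and 0.28 with KRT19, and 0.22, 0.20 and 0.21 with KRT8. KRT8 with KRT19 gave 0.19, 0.19 and 0.21, and KRT18 with KRT19 gave 0.16, 0.16 and 0.17.

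The remaining pairs were close to 0. KRT10 with KRT7 gave 0.01 in DMSO, −0.08 in RAC1i and −0.08 in Combo, and KRT10 with KRT18 gave 0.00, −0.08 and −0.08. KRT80, the other keratin that rose, was at 0.06, 0.08 and 0.10 with KRT7. KRT10 with KRT80 was at 0.01, 0.00 and −0.01. Correlations this weak in sparse counts are given as values only.

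**Figure D5:**
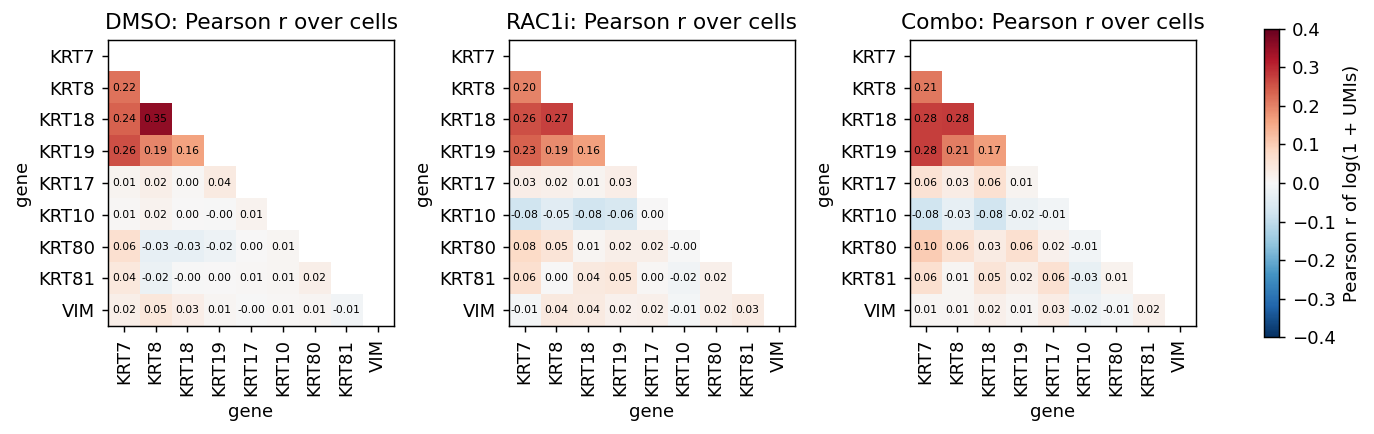
Pearson's r of log(1 + UMI) for every pair of the 9 genes over cells thinned to 5000 UMIs, separately for DMSO, RAC1i and Combo. The pairs among KRT7, KRT8, KRT18 and KRT19 range from 0.16 to 0.35 and stand out in each library, whereas pairs with VIM lie between −0.02 and 0.05.

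Vimentin was found in cells that also held keratins. A UMI of both KRT18 and VIM was present in 89 thinned cells of DMSO (1.32%, 1.06% to 1.63%), 152 of RAC1i (1.65%, 1.40% to 1.93%) and 75 of Combo (1.02%, 0.803% to 1.28%). If the 2 genes had been detected independently of each other, the shares would have been 1.30%, 1.60% and 1.01%. VIM without KRT18 was seen in 1 cell of DMSO, 8 of RAC1i and 5 of Combo. All 4 simple keratins and VIM were detected together in 63, 75 and 40 thinned cells.

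Cells with more VIM also held keratins. Before thinning, 27 cells of DMSO, 55 of RAC1i and 44 of Combo held 3 or more VIM UMIs, and each of them had UMIs of KRT8 and KRT18. Over all kept cells 98.5%, 92.8% and 91.4% had a KRT8 UMI and 99.3%, 97.2% and 96.8% a KRT18 UMI, so this says little about cells with VIM. In thinned cells with a VIM UMI the level of KRT18 was 1180 CPM with DMSO, 836 with RAC1i and 820 with Combo. In cells without one it was 991, 677 and 723 CPM. KRT8 was likewise higher with a VIM UMI in DMSO (864 beside 606 CPM) and RAC1i (497.5 beside 388 CPM). In Combo its counting intervals overlapped (410 beside 393 CPM). KRT7 was at 1404, 467.5 and 605 CPM in cells with a VIM UMI beside 1299.9, 489.6 and 616 CPM without one. KRT10 was at 169, 255 and 207.5 CPM beside 159, 270.3 and 243 CPM. Both were thus higher with a VIM UMI in DMSO and lower in RAC1i and Combo. For KRT7 and KRT10 the counting intervals with and without VIM overlapped in every library, so no direction is read from them. VIM and KRT18 were both highest in the shallowest group of cells in every library, and the part of depth in these differences was not tested. The highest number of VIM UMIs in a cell was 10 with DMSO, 13 with RAC1i and 12 with Combo.

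Outside the list, the calcium-binding proteins S100A11 and S100A6 were most alike with KRT7 from cell to cell. Over 2143 genes with at least 50 CPM in every library, the genes whose lowest r with KRT7 over the 3 libraries was highest were S100A11 (0.27 in DMSO, 0.34 in RAC1i, 0.35 in Combo), S100A6 (0.25, 0.28, 0.29) and KRT18. For KRT8 they were KRT18, KRT7 and KRT19, for KRT18 they were KRT8, KRT7 and S100A11, and for KRT19 they were KRT7, KRT8 and S100A11. The histone gene HIST1H4C, which is transcribed in S phase, was the most opposite to KRT7 (−0.14, −0.11, −0.11), KRT18 and KRT19, and the small nucleolar RNA host gene ZFAS1 to KRT8 (−0.09, −0.15, −0.15). VIM was under 50 CPM, so no likeness was computed for it.

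CRYAB, a small heat shock protein, followed KRT7 in DMSO and hardly in the treated libraries, with r at 0.20 for DMSO, 0.02 for RAC1i and 0.04 for Combo. Its level went from 247 CPM in DMSO to 76.7 and 64.6 CPM. The galectin genes LGALS1 (0.17, 0.12, 0.14) and LGALS3 (0.17, 0.17, 0.18) stayed alike with KRT7 in all libraries. LGALS3 fell from 287 CPM in DMSO to 116 and 140 CPM, and LGALS1 from 382 to 228 and 233 CPM.

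Most other keratin genes were silent or nearly so. Of the 47 other keratins in the tables, 26 had 0 UMIs in DMSO, 12 in RAC1i and 8 in Combo, where a count of 0 allows up to 3 UMIs. KRT23, a type I keratin of simple epithelia, was the only one at 10 CPM or more. It fell from 50.7 CPM with DMSO to 9.68 with RAC1i and 8.28 with Combo, log2 ratios of −2.39 and −2.61, both below those of every gene of the list.

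Between 1 and 10 CPM, 6 other keratins could be compared in RAC1i over DMSO, and KRT86, KRT4, KRT78, KRT13 and KRT15 were over 1.5-fold higher and KRT83 lower, against 26.4% and 48.0% of all genes at this level. In Combo over DMSO 3 of 5 were higher (KRT86, KRT78 and KRT15) and KRT83 was lower, against 25.2% and 47.4%. In Combo over RAC1i 0 of 7 were higher and 1, KRT13, was lower, against 1.69% and 2.23%. KRT13, a suprabasal keratin of internal stratified epithelia, went from 28 UMIs in DMSO to 271 in RAC1i and 154 in Combo, ratios of CPM of 8.20 (5.55 to 12.6) and 5.15. KRT36, a hair keratin, had 0 UMIs in DMSO and 64 and 53 in the treated libraries, which is at least 18.1-fold and at least 16.5-fold higher when 3 UMIs are allowed in DMSO. These low keratins were chosen after their values were seen.

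Most of the listed genes for filament linkers and desmosome proteins fell. Of 18 linkers and desmosome genes, 14 reached the minimum in RAC1i over DMSO, and 11 fell and 1 rose, with a median log2 ratio of −0.99 beside −0.20 for all genes, of which 36.9% fell and 22.7% rose. In Combo over DMSO 11 of 14 fell and 0 rose, with a median of −1.04, beside 35.4% and 21.3% of all genes. PPL, which encodes the linker periplakin, fell most, from 54.7 CPM in DMSO to 18.0 and 16.2 CPM. PKP2, a desmosomal plaque protein, was at 29.7 CPM with DMSO, 46.5 with RAC1i and 34.2 with Combo, and rose in RAC1i over DMSO.

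Of 14 other intermediate filament and lamin genes, 4 reached the minimum in each comparison with DMSO, and 1 rose and 1 fell in RAC1i and 1 rose and 2 fell in Combo. These counts were near the 59.6% and 56.7% of all genes called in either direction. INA, a neuronal filament protein, rose from 11.2 CPM in DMSO to 50.4 and 58.8 CPM. LMNB1, the nuclear lamina protein lamin B1, fell from 69.6 CPM to 17.3 and 18.3 CPM. The median log2 ratio of the list was −0.40 in RAC1i and −0.34 in Combo.

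Of 16 mesenchymal and EMT genes, 3 reached the minimum in each comparison with DMSO, and in both 1 rose and 1 fell, again near the share of all genes called. SNAI1, a repressor of epithelial genes, went from 1.56 CPM in DMSO to 39.1 and 39.5 CPM, while TWIST1, another EMT factor, fell from 12.7 CPM to 4.13 and 4.30 CPM. Vimentin stayed under 4 CPM beside them. A list of 14 epithelial regulators held transcription factors and the splicing regulators ESRP1 and ESRP2. Among 11 tested in RAC1i over DMSO, 7 rose and 2 fell. Among 10 tested in Combo over DMSO, 5 rose and 3 fell, with ESRP1 (log2 −0.59) among those that fell. The medians were 1.03 and 0.65. Of all genes, 22.7% rose and 36.9% fell in RAC1i over DMSO and 21.3% and 35.4% in Combo over DMSO, with medians of −0.20 and −0.18. OVOL1, a repressor of EMT, rose from 1.14 CPM to 47.6 and 45.3 CPM, and EHF, an epithelial factor of the ETS family, fell from 15.8 CPM to 2.75 and 2.24 CPM.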

How the data were processed

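Single cells were profiled with a 10x 3′ kit in 3 libraries of OVCAR3 cells, 1 for each condition. The deposited counts, made by the authors with Cell Ranger 4.0.0 on GRCh38 per the submitters' processing notes, are whole numbers of UMIs for each gene and barcode, not normalized. Default settings were used, which count reads on the sense strand of a gene. A cell was kept if it had more than 1000 genes, no more than 20% of UMIs from mitochondrial genes and a complexity over 0.8, out of 10071, 11772 and 9757 barcodes in DMSO, RAC1i and Combo. UMIs of the kept cells were summed and scaled to CPM.

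Intervals at 95% were exact Poisson (CPM), exact conditional (ratios) and Clopper-Pearson (shares), and cover counting error only. No test was made. A call meant a change of 1.5-fold or more in a gene whose higher library reached 10 CPM, and the same rule was applied to all genes as background. Cells were thinned to 5000 UMIs for shares and correlations. The genes named were the 9 described, other keratins of at least 10 CPM, the largest rise and fall of each gene list in RAC1i over DMSO, the 3 most alike and 1 most opposite genes for KRT7, KRT8, KRT18 and KRT19, and CRYAB, LGALS1 and LGALS3. Cell type markers and genes that overlap those described were also named, and keratins of 1 to 10 CPM and KRT36 were chosen after their values were seen. The genes and lists were chosen with earlier results of these data known. Positions came from GENCODE 44 (36366 of 36601 genes matched) and promoters from RefSeq.

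Alternatives were a mitochondrial limit of 10%, every barcode, leaving out the 8% of cells with the most UMIs, TMM (edgeR 4.0.16), size factors (DESeq2 1.42.0), a total without mitochondrial genes, means over cells, thinning and no minimum CPM. Splitting cells by UMIs and leaving out the 10 highest cells of a gene were added after seeing the data. The calculation was tested on simulated data. Python 3.11.15, numpy 2.4.6, scipy 1.17.1, pandas 2.3.3 and R 4.3.3 were used.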

Additional observations from a re-analysis of the deposited data

Results flagged for a closer look

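The barcodes that the limits on cells removed (2540 of DMSO, 1557 of RAC1i and 1518 of Combo) were left out of the main comparisons. They entered only the alternative with every barcode. Removed barcodes of DMSO were the most numerous but held the fewest UMIs outside mitochondrial genes, 4780953 beside 19318799 in RAC1i and 26989318 in Combo. They were thus shallower than those of the treated libraries, and the part of depth was not tested. The keratins that rose in kept cells were also higher in the removed barcodes, and those that fell in both comparisons, KRT7 and KRT19, were lower. These are values of data that the main comparisons did not use, given as CPM without mitochondrial genes and with no test. In removed barcodes KRT10 was at 120.5 CPM with DMSO, 326.2 with RAC1i and 303.5 with Combo, ratios to DMSO of 2.707 and 2.519. KRT80 was at 51.66 CPM with DMSO, 161.6 with RAC1i and 141.7 with Combo, ratios of 3.127 and 2.742. KRT17 was at 5.857 CPM in DMSO (28 UMIs) and 12.79 CPM in RAC1i (247 UMIs), a ratio of 2.183. KRT7 was at 1231 CPM with DMSO, 333 with RAC1i and 452 with Combo, and KRT19 at 401, 174 and 200 CPM.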

How the results depend on the processing

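Each log2 ratio of the 9 genes was recomputed under 12 alternatives, 324 values over the 3 comparisons. Of these, 148 stayed within the counting interval, 175 moved beyond it and 1 reversed a call, KRT81 in Combo over DMSO, which was 0.32 in the group of cells with the fewest UMIs, a split added after seeing the data; the cause was not tested. The number called was 5 to 7 in RAC1i over DMSO and 4 to 6 in Combo over DMSO. In Combo over RAC1i it was 0 except in the group of cells with the most UMIs, where it was 1, KRT17, which was lower. The share of cells with both a KRT18 and a VIM UMI moved with depth, by construction, to 0.558%, 0.871% and 0.635% in DMSO, RAC1i and Combo at 2500 UMIs and to 4.28%, 5.72% and 4.53% without thinning. The correlation of KRT8 and KRT18 was 0.26, 0.21 and 0.21 at 2500 UMIs. No paired analysis was possible because each condition was 1 library. The main limits are that spread between cultures is unknown, that doublets and free RNA were not removed, and that VIM, KRT81 and KRT17 rest on few UMIs.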
